A study of Mus musculus with 16 samples.

Results

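The genes described here are 10 whose protein products are targets of autoimmunity in the pancreatic islet: Ins1, Ins2, Gad1, Gad2, Ptprn, Ptprn2, Slc30a8, Iapp, G6pc2 and Ica1. They were chosen by name, and the rows of the count table whose Ensembl identifiers carry these symbols were read in every library. All 10 had a row, among 53464 Ensembl genes and 89407 rows in all. Values are counts of reads per gene, or CPM, the usual scaling of a gene's count to its library's total.

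Medullary thymic epithelial cells (mTEC) express genes of peripheral tissues, so that developing T cells meet these self-antigens and reactive clones are deleted or turned into regulatory T cells. The nuclear protein AIRE drives much of this promiscuous expression in mature mTEC. In type 1 diabetes, tolerance to beta cell proteins fails, and autoantibodies to insulin, GAD65 (the product of Gad2), IA-2 (Ptprn), IA-2 beta (Ptprn2) and the zinc transporter ZnT8 (Slc30a8) mark the disease before its onset.

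The study asked what the splicing regulators RBFOX1 and RBFOX2 do in these cells, and sorted mature mTEC (CD45- EpCAM+ Ly51- UEA+ MHCII high) and immature mTEC (MHCII low) from conditional knockout mice, termed Rbfox1 tKO and Rbfox2 tKO. Every mouse of the Rbfox1 line was Rbfox1 lox/lox and every mouse of the Rbfox2 line Rbfox2 lox/lox, controls included. Controls were Foxn1 wildtype/wildtype, and tKO mice Foxn1 wildtype/cre, so that Cre came from the Foxn1 locus, which is active in thymic epithelium. Each line and genotype had 1 female and 1 male mouse, 4 to 6 weeks old and labelled C57BL/6 (the methods give an age of 4 weeks and a mixed 129S2/Sv and C57BL/6J background), and each mouse gave 1 library per population from 10000 sorted cells, which makes 16 polyA libraries. Library totals ran from 3737884 to 4636367 counts in mature mTEC and from 1506134 to 2430287 in immature mTEC, so that low counts are less precise in the latter. A count of 0 over the 8 immature libraries allows up to 0.193 CPM (3 counts of their summed total), and over the 8 mature libraries up to 0.0882 CPM. Reads after PCR without molecular identifiers are not independent molecules, so that intervals and floors given here cover counting error only.

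The labels could be checked on 2 further genes. Rbfox2 fell in Rbfox2 tKO mice, by 2.14 on the log2 scale in mature mTEC (edgeR adjusted p = 1.31e-06) and by 1.69 in immature mTEC (edgeR adjusted p = 0.000532). Rbfox1 read 156 and 126 counts in the mature libraries of Rbfox1 tKO mice and 247 and 225 in those of their controls, a log2 difference of -0.66 that was not called (edgeR adjusted p = 0.242). In immature mTEC Rbfox1 hardly differed, at 150 and 157 CPM in Rbfox1 tKO mice and 165 and 161 CPM in their controls. The Rbfox1 tKO label was thus barely seen in the immature libraries. Reads of the exons that remain are still counted after a conditional exon is removed. The sort was seen in Aire, at 639 to 1623 CPM in mature and 18.6 to 300 CPM in immature mTEC. Aire also separated the lines: mature libraries held 1254 to 1623 CPM in the Rbfox1 line and 639 to 901 in the Rbfox2 line.

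Insulin is encoded by a pair of genes in the mouse. Ins2 (chromosome 7, 142678656 to 142743381, minus strand in GRCm38) is the ancestral gene, and Ins1 (chromosome 19, 52264297 to 52265476, plus strand) a retroposed copy of it. Their coding sequences in the GENCODE M21 transcripts Ins1-201 and Ins2-201 were identical at 302 of 327 aligned bases (92.4%). The longest run they share is printed below, since reads that lie within it cannot be told apart. It has 56 bases and lies in the last coding exon of both genes, at chr19:52264894-52264949 on the plus strand and chr7:142678714-142678769 on the minus strand.
Ins1 and Ins2 shared run: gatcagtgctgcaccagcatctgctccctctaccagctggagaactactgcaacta
Of the 50-base windows of the Ins2 coding sequence, 7 of 284 (2.46%) also occurred in Ins1, so that most positions tell the genes apart for reads of that length or longer.

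Ins2 was a gene of the mature cells. Its counts in the 8 mature libraries were 39 at the lowest, 54.5 at the median and 71 at the highest, or 8.94, 13.3 and 15.3 CPM. In immature mTEC it had 5 counts over 8 libraries, 2 each in Rbfox1 tKO replicate 2 and Rbfox2 control replicate 2 and 1 in Rbfox1 control replicate 3. Each mature library held far more than any immature library, and the groups did not overlap. The summed rate was 39.4 times higher in mature mTEC (95% exact counting interval 16.7 to 122).

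Ins1 was near the limit of detection in both populations. The mature libraries held 0 to 5 counts, 15 in all, and 7 of 8 had at least 1. Immature mTEC gave 12 counts, all from Rbfox1 control replicate 2, which reached 5.20 CPM while the other 7 immature libraries were at 0. With that library the summed mature rate was 0.572 times the immature rate (95% exact interval 0.250 to 1.34). Without it the mature rate was 1.95 times a floor of 3 counts over the 7 libraries, with no interval computed. This alternative was chosen after seeing the data. The direction for Ins1 thus rests on 1 library. Ins2 made up 96.6% of the counts of the pair in mature mTEC (95% exact interval 94.5 to 98.1), and per kb of exon its level was 23.2 times that of Ins1.

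Glutamate decarboxylase, which makes GABA from glutamate, is encoded by Gad1 (GAD67; chromosome 2, 70553072 to 70602014, plus strand) and Gad2 (GAD65; chromosome 2, 22622205 to 22693874, plus strand). Gad1 read 158, 211.5 and 256 counts as the lowest, median and highest of the mature libraries, or 38.01, 47.6 and 62.5 CPM. The immature libraries read 0, 6.5 and 14 counts, or 0, 3.01 and 6.43 CPM. Every mature library stood above every immature library, and the summed rate was 15.0 times higher (95% exact interval 11.3 to 20.3). Gad2, the form that is the classical target in type 1 diabetes, was scarce, with 49 counts over the mature and 2 over the immature libraries. Its summed rate was 11.2 times higher in mature mTEC, with a counting interval of 2.94 to 95.2. Of the counts of the pair in mature mTEC, 97.1% belonged to Gad1 (95% exact interval 96.2 to 97.9), and the share lay between 95.4% and 100% in each library.

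**Figure D1:**
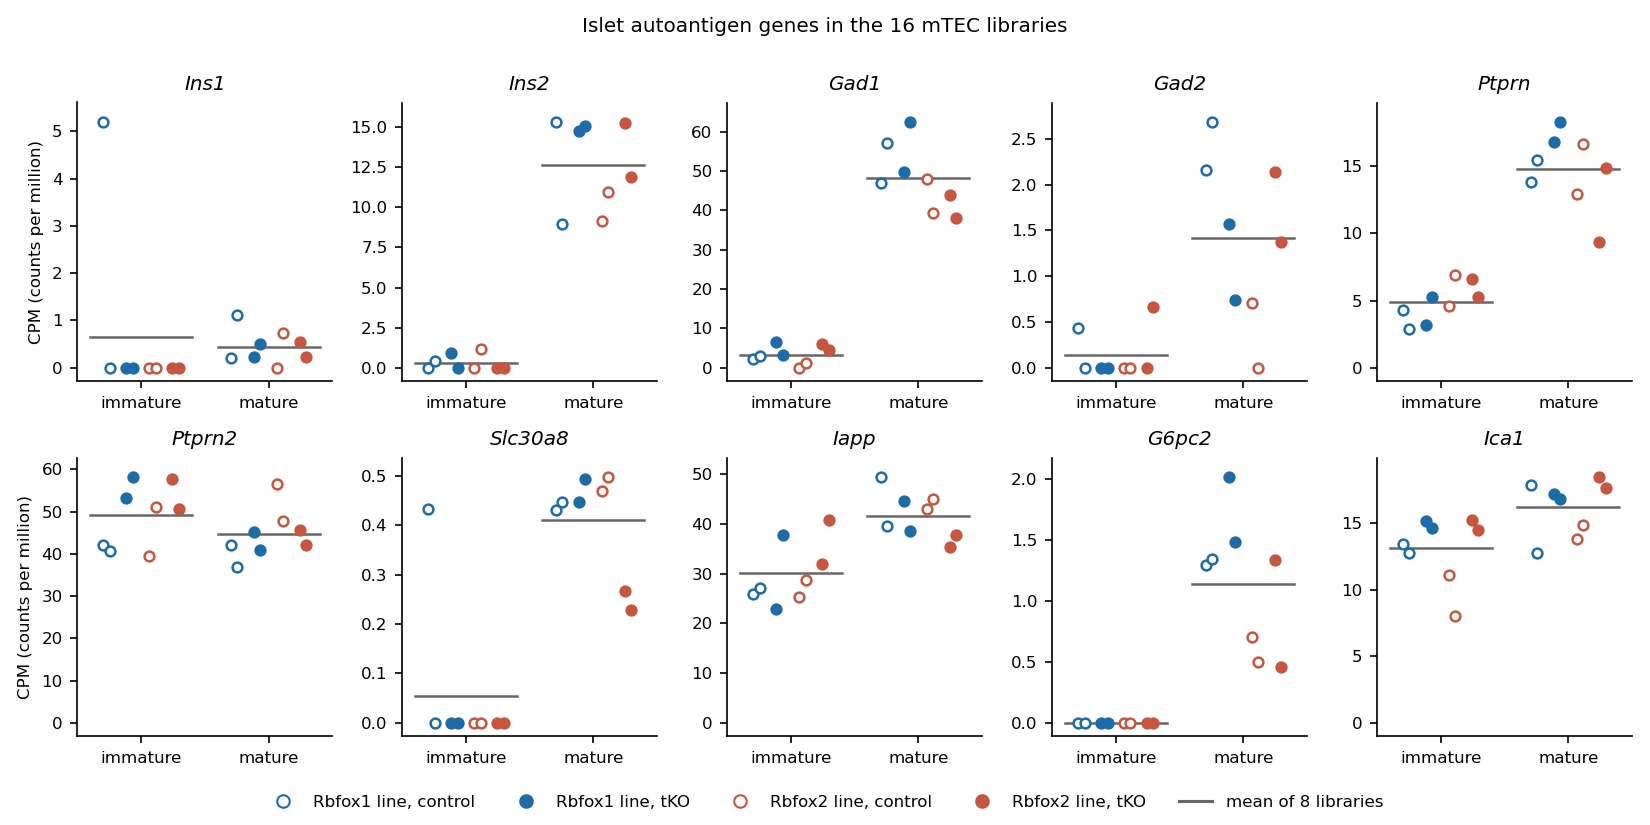
CPM of the 10 genes in each of the 16 libraries, immature on the left and mature on the right of each panel, with 1 point per library (colour for the line, open for control and filled for tKO) and a bar at the mean of 8 libraries. Ins2, Gad1, Ptprn and, at low counts, G6pc2 sit higher in all 8 mature libraries than in any immature library. Ptprn2 overlaps between the populations, and the immature bar of Ins1 comes from 1 library at 5.20 CPM. Each panel has its own vertical axis.

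Ptprn and Ptprn2 encode transmembrane proteins of dense-core granules that look like tyrosine phosphatases but lack the usual activity. Ptprn (chromosome 1, 75247027 to 75264502, minus strand) read 35, 66 and 75 counts as the lowest, median and highest mature library and 7, 9.5 and 12 in immature mTEC. In CPM these were 9.36 to 18.3 against 2.88 to 6.90, with no overlap. Its exons share 189 bases with the antisense gene Gm28294, which had at most 1 count in any library. Ptprn2 (chromosome 12, 116485720 to 117276849, plus strand) behaved otherwise. Its mature libraries lay between 36.9 and 56.6 CPM (median 43.7) and its immature libraries between 39.5 and 58.2 CPM (median 50.9), so that the ranges overlapped nearly throughout. Ptprn2 made up 75.0% of the counts of the pair in mature mTEC (95% exact interval 73.1 to 76.9) and 91.2% in immature mTEC (89.0 to 93.0).

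Iapp, which encodes amylin, the peptide co-secreted with insulin, was detected in all 16 libraries. It lies at chromosome 6, 142298423 to 142303961 on the plus strand, within the span of Slco1a5 on the other strand, with which it shares no exonic base. Its mature libraries read 35.3, 41.3 and 49.4 CPM (lowest, median, highest) and its immature libraries 23.0, 28.0 and 40.8 CPM. The ranges overlapped, and 7 of 8 mice had more in their mature than in their immature cells. No source used here gives the strand setting of the counting, and with 96 to 132 counts of Slco1a5 in mature and 19 to 37 in immature libraries, reads of an unspliced Slco1a5 transcript over Iapp cannot be told apart without it.

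Ica1, an autoantigen with a lipid-binding BAR domain that takes part in granule formation (chromosome 6, 8630527 to 8778488, minus strand), was likewise present in all libraries. It read 12.7, 17.0 and 18.5 CPM as the lowest, median and highest mature library and 8.04, 14.0 and 15.3 CPM in immature mTEC. G6pc2, the islet-specific glucose-6-phosphatase subunit that sets the glucose threshold of insulin secretion (chromosome 2, 69211073 to 69227841, plus strand), had 2 to 9 counts in each mature library and none in any immature library. Its mature rate was 5.95 times a floor of 3 counts over the 8 immature libraries. The 95% exact counting interval of the ratio had a lower limit of 4.61. Slc30a8, which loads zinc into insulin granules (chromosome 15, 52295553 to 52335798, plus strand), had 1 or 2 counts in each mature library, 14 in all, and 1 count in immature mTEC. That ratio of 6.41 had a counting interval of 0.975 to 271, so that no difference was detectable at this depth.

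Levels of different genes were compared per kb of exon, taking all annotated exon bases of a gene as its length. Which of these exons the cells used was not tested. The order below, and the ratio of Ins2 to Ins1 above, thus depend on the annotation. In mature mTEC Iapp stood first at 42.7 ± 4.76 CPM per kb (SD, n = 8), above the range of every other member and between the 93.6th and 95.7th percentile of 21865 protein-coding genes. Ins2 followed at 9.66 ± 2.11, then Gad1 at 6.31 ± 1.10, Ptprn2 at 5.19 ± 0.680, Ica1 at 4.99 ± 0.645 and Ptprn at 3.47 ± 0.653 CPM per kb. Neighbours among these 5 overlapped in their ranges of 8 libraries. G6pc2, Ins1, Gad2 and Slc30a8 formed the low end, at 0.578 ± 0.274 CPM per kb and less, below the range of Ptprn and each overlapping its neighbour. In immature mTEC the order was Iapp at 30.9 ± 6.47, Ptprn2 at 5.72 ± 0.872 and Ica1 at 4.05 ± 0.764 CPM per kb. Iapp was apart from Ptprn2 and Ica1 apart from the fourth, Ptprn, at 1.15 ± 0.340, while Ptprn2 and Ica1 overlapped. Ins2 and Gad1, which followed Iapp in mature cells, were at 0.236 ± 0.360 and 0.431 ± 0.296 CPM per kb here.

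**Figure D2:**
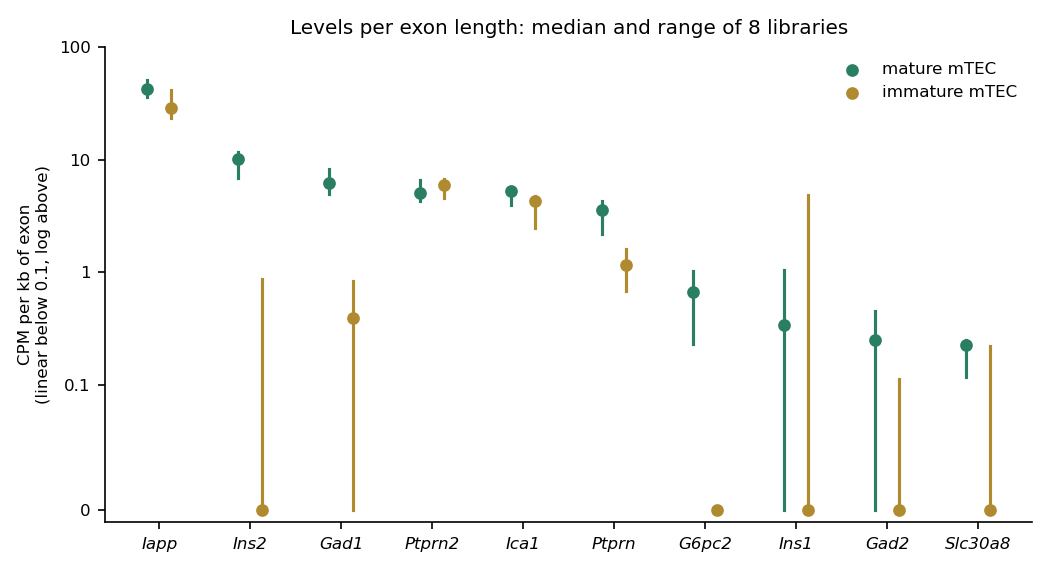
Levels per exon length, in CPM per kb of exon, for the 10 genes ordered by their mean in mature mTEC. Points are medians and lines the range of 8 libraries, on an axis that is linear below 0.1 and logarithmic above. Iapp leads in both populations, Ptprn2 and Ica1 hold similar levels in both, and Ins2 and Gad1 have medians of 10.2 and 6.23 in mature but 0 and 0.394 in immature mTEC.

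At least 1 count was found for 9 to 10 of the 10 genes in each mature library and for 4 to 8 in each immature library. The populations differ in depth, so the libraries were also thinned to 1506134 counts each. The mature libraries then held 7 to 10 of the genes (median 8.5, against 10 unthinned) and the immature libraries 4 to 7 (median 6, as before). In summed CPM the 10 genes gave 165 to 195 in mature and 80.6 to 119 in immature libraries. Ptprn2 and Iapp supplied 48.4% and 29.4% of the summed counts of the set in immature mTEC, and Gad1 led in mature mTEC with 26.6%.

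The starts of these genes were read from RefSeq promoter windows of GRCm38.p6, 250 bases before to 50 after the start, which matched 8 of the 10 genes. Those of 3 genes that were mature-restricted or near 0 (Gad1, G6pc2, Ins1) and of 2 that both populations expressed (Iapp, Ptprn2) are given here because they differ in base composition. The window of Gad1 starts from a transcript start 9057 bases inside the annotated gene. Capitals mark TATAAA and CATCTG (an E-box core) on either strand, and these matches did not overlap.
Gad1 (chr2:70561879-70562178, plus strand): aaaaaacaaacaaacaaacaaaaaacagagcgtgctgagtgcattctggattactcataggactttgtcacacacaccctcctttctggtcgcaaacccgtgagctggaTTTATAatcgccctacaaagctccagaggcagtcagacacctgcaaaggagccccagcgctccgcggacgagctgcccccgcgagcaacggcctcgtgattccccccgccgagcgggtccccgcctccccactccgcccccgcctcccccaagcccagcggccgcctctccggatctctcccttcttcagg
G6pc2 (chr2:69210823-69211122, plus strand): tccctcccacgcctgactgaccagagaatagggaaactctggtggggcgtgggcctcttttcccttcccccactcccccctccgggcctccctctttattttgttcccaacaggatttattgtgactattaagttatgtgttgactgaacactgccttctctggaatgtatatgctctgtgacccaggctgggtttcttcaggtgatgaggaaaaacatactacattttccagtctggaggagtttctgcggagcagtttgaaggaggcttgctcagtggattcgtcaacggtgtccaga
Ins1 (chr19:52264047-52264346, plus strand): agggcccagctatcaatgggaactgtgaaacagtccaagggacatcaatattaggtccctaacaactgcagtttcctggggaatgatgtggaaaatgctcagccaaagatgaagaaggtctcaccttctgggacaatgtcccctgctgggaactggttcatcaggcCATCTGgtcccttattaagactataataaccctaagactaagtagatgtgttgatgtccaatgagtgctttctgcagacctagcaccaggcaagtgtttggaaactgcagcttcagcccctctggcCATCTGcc
Iapp (chr6:142298175-142298474, plus strand): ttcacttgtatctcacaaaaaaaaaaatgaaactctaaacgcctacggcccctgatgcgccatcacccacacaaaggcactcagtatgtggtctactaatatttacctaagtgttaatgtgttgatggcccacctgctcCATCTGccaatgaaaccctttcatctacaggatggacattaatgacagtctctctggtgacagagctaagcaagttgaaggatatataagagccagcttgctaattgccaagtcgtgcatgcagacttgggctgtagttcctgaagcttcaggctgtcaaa
Ptprn2 (chr12:116485470-116485769, plus strand): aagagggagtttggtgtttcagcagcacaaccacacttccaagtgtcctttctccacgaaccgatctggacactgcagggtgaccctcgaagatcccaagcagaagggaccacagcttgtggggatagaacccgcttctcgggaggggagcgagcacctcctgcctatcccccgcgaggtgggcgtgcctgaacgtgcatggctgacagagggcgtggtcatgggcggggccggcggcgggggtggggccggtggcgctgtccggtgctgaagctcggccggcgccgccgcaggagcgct
CATCTG lay 84 bases before and 43 after the start of Ins1 and 111 bases before that of Iapp. It occurred in 4 of the 8 member windows nearest the gene's start and in 17.2% of all 32851 windows. TATAAA occurred in 2 of the 8, Gad1 and Ica1, and in 13.6% of all windows. Its first base lay 141 bases before the start of Gad1 and 142 before that of Ica1. Only exact matches were sought, so that a window without one may still hold a variant of the motif. TAATTA, a homeodomain core, occurred in none of the 8 and in 5.29% of all. The ratio of observed to expected CpG was 0.849 for Gad1 and 0.746 for Ptprn2, but 0 for Ins1, 0.274 for Iapp and 0.312 for G6pc2, with a median of 0.384 over all windows. The windows of Gad2, Ptprn and Ica1 were at 0.543, 0.538 and 0.558.

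The first comparison asked how the genes differ between mature and immature cells of the same control mice. Ins2, Gad1 and Ptprn were higher in mature mTEC, while Iapp, Ica1 and Ptprn2 did not pass both thresholds (adjusted p under 0.05 and over 2-fold). Only 6 of the 10 genes passed the filter on low counts, and Ins2 and Gad1 passed it through their mature libraries alone, so that these genes, once tested, had to be higher there. Of the features tested, 37.5% were called, 26.4% higher and 11.1% lower in mature mTEC. The members' count, 3 of 6 tested and all higher, is to be read beside that share, as a description. Their median log2 fold change was 1.15, and that of all 16750 features 0.04.

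Ins2 rose by 4.78 ± 0.55 on the log2 scale (SE, edgeR adjusted p = 2.07e-06) and was higher in 4 of 4 control mice. Gad1 rose by 4.80 ± 0.28 (edgeR adjusted p = 1.57e-09), also in 4 of 4. For Ptprn the log2 fold change was 1.63 ± 0.25 (edgeR adjusted p = 3.93e-05), in 4 of 4 control mice. Iapp differed by 0.67 ± 0.12 (edgeR adjusted p = 0.000217), which is less than 2-fold, and was higher in 4 of 4 control mice. Ica1 differed by 0.32, with an interval from -0.10 to 0.74 that reached 0. The log2 difference of Ptprn2 was 0.01, between -0.24 and 0.26, an interval that holds no 2-fold change in either direction.

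The tKO mice share no library with the controls. There, too, the genes called were Ins2, Gad1 and Ptprn, all higher in mature mTEC, at a background of 37.8% called (25.9% higher, 12.0% lower) among 16578 features. Ins2 rose by 5.45 ± 0.51 (edgeR adjusted p = 2.92e-08). Without Rbfox1 tKO immature replicate 2, which holds both immature counts, the fitted change was 8.44. Gad1 rose by 3.23 ± 0.21 (edgeR adjusted p = 2.44e-10) and Ptprn by 1.55 ± 0.28 (edgeR adjusted p = 9.50e-05). Ptprn2 differed by -0.37 ± 0.11, lower in mature mTEC in 4 of 4 tKO mice, with an edgeR adjusted p of 0.00487 but less than 2-fold. Iapp and Ica1 differed by 0.21 and 0.19, and both intervals held 0.

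**Figure D3:**
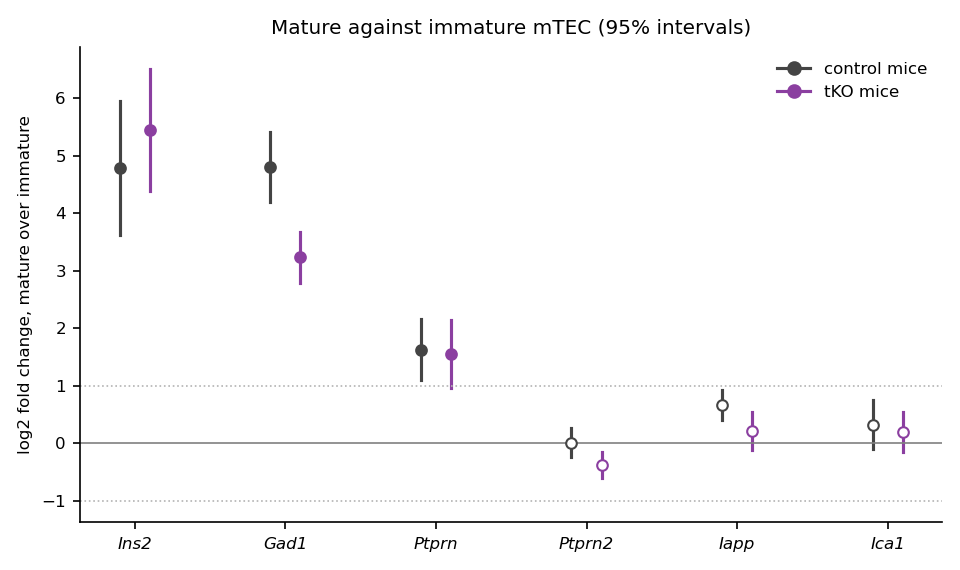
Log2 fold change of mature over immature mTEC for the 6 genes tested, with 95% intervals, in 4 control mice (grey) and 4 tKO mice (purple). Filled points were called and dotted lines mark 2-fold. Ins2, Gad1 and Ptprn lie above the upper line in both, from 1.55 to 5.45, while Iapp, Ica1 and Ptprn2 lie between the lines.

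The 4 remaining genes entered only when no filter on low counts was used. The number called was then 5 in control and 5 in tKO mice, with G6pc2 and Gad2 added. Of all features, 8708 of 45899 were called without the filter in control mice and 9627 of 45694 in tKO mice. For Gad2 the unfiltered edgeR adjusted p was 0.0231 in control and 0.00507 in tKO mice. For G6pc2, at 0 in every immature library, it was 0.0141 and 0.000472. Slc30a8 and Ins1 were not called, and the fitted change of Ins1 was -1.24 in control and 3.26 in tKO mice, opposite in sign because its 12 immature counts lay in a control library.

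Whether the difference between populations itself depended on genotype was tested as an interaction over all 16 libraries. No feature was called (0 of 17442, 905 at an unadjusted p under 0.05, and 0 with DESeq2), so 0% were called and no member was. Of the 6 members tested, 3 had an unadjusted p under 0.05 in edgeR. Gad1 was the foremost of them: the difference between populations was smaller in tKO mice by 2.06 ± 0.52 on the log2 scale (edgeR adjusted p = 0.537). Mature and immature libraries come from the same mice, and with the mouse as a replicate block Gad1 was called (log2 difference -2.07, edgeR adjusted p = 0.0322) as 1 of 49 features. The value was -1.55 without Rbfox2 control immature replicate 1 and -4.04 without Rbfox2 control immature replicate 2. Iapp and Ptprn2 had differences of -0.47 and -0.40 with adjusted p above 0.9 in edgeR.

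The immature libraries carried this difference in Gad1. Their counts were 5 and 7 in Rbfox1 controls, 14 and 6 in Rbfox1 tKO, 0 and 2 in Rbfox2 controls and 9 and 7 in Rbfox2 tKO mice. In CPM the 4 tKO libraries (5.04 ± 1.48, SD) all stood above the 4 control libraries (1.55 ± 1.25), whereas the mature libraries of the genotypes overlapped (48.5 ± 10.5 in tKO and 47.9 ± 7.37 in control mice). The share of all features whose immature libraries separated the genotypes was not counted. Gad1 passed the filter in the immature fits through tKO libraries, with no control library at that level, so that these tests are not free of how it was chosen. In the Rbfox2 line alone, the immature difference was 3.16 ± 0.93 on the log2 scale (edgeR adjusted p = 0.491). It was 2.16 without control replicate 1 and 6.46 without control replicate 2. Without the filter on low counts it was called (3.13, edgeR adjusted p = 0.0460), with 48 of 32404 features called, and DESeq2 gave it no adjusted p. In the Rbfox1 line the difference was 0.93 ± 0.63 (edgeR adjusted p = 0.884). The difference between the lines was 2.23, with an interval of -0.27 to 4.74 (edgeR adjusted p = 0.975).

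The comparison of tKO with control mice asked whether loss of RBFOX1 or RBFOX2 changes the supply of these antigens. No member was called in either line or population by edgeR or by DESeq2, at a background of 0.0166% of features called for Rbfox1 tKO and 0.0277% for Rbfox2 tKO in mature mTEC, and 0.0306% and 0.0536% in immature mTEC. At an unadjusted p under 0.05 in edgeR there were 0 and 0 members in mature and 1 and 1 in immature mTEC. Over both lines the called share was again 0.0166% in mature and 0.0306% in immature mTEC, and 0 members were called by either tool, with 0 and 2 at an unadjusted p under 0.05 in edgeR.

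In mature mTEC the intervals were narrow. Over both lines Gad1 differed by 0.01 on the log2 scale, between -0.20 and 0.23, Ptprn by 0.02, between -0.33 and 0.37, and Ptprn2 by -0.06, between -0.27 and 0.15. Iapp differed by -0.17, between -0.38 and 0.04, and Ica1 by 0.24, between -0.06 and 0.55. None of these 5 intervals held a 2-fold change. Ins2 read 71 and 40 counts in Rbfox1 controls, 66 and 61 in Rbfox1 tKO, 39 and 44 in Rbfox2 controls and 57 and 52 in Rbfox2 tKO mice. The genotypes overlapped in the Rbfox1 line and not in the Rbfox2 line. With 2 against 2 libraries such separation can arise by chance, and its share over all features was not counted. Over both lines Ins2 was at 14.2 ± 1.57 CPM in tKO and 11.1 ± 2.96 CPM in control mice (SD, n = 4), a log2 difference of 0.36 ± 0.18 (edgeR adjusted p = 0.999).

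In immature mTEC the 5 genes tested all had log2 differences above 0 over both lines, and none was called. Ptprn2 read 55.0 ± 3.60 CPM in tKO mice against 43.3 ± 5.29 in controls (SD, n = 4), and 3 of the 4 tKO libraries stood above every control. That difference was 0.36 ± 0.12 on the log2 scale (edgeR adjusted p = 0.474). For Gad1 it was 1.61 ± 0.54 (edgeR adjusted p = 0.476). Iapp and Ica1 differed by 0.30 and 0.38, with intervals that held 0, and Ptprn by 0.14, between -0.61 and 0.89. For Ica1 all 4 tKO libraries (14.9 ± 0.37 CPM, SD) stood above the 4 control libraries (11.3 ± 2.40). How many of all features separated the genotypes in this way was not counted. No member was called for a difference of the tKO effect between the lines, at a background of 0.00555% called in mature and 0.00766% in immature mTEC (edgeR, 0 members at an unadjusted p under 0.05 in both, and 0 called with DESeq2).

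**Figure D4:**
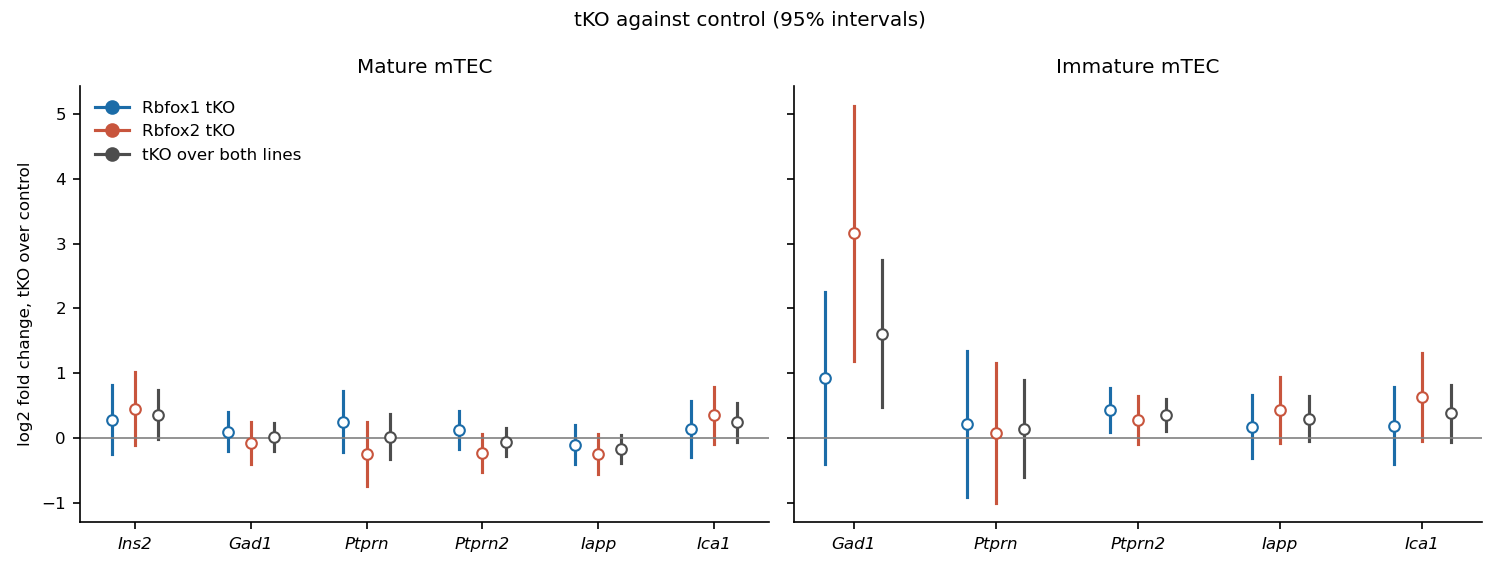
Log2 fold change of tKO over control mice, with 95% intervals, for the genes tested in mature mTEC (left, 6 genes) and immature mTEC (right, 5 genes), by line and over both lines. No gene was called, so all points are open. In mature mTEC all estimates lie between -0.25 and 0.45, and the widest interval is that of Gad1 in immature Rbfox2 tKO mice, around 3.16.

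Since Aire differed between the lines, the Rbfox2 line was also set against the Rbfox1 line within each population, a comparison chosen after seeing the data. The effect of the line cannot be told apart from anything else in which the mice of the lines differed. Of all features, 1.05% were called in mature and 5.0% in immature mTEC, and 0 members were called in either (edgeR and DESeq2). At an unadjusted p under 0.05 in edgeR there were 2 members in mature and 0 in immature mTEC. The log2 difference of Aire was -0.995 in mature mTEC, just short of the 2-fold threshold (edgeR adjusted p = 7.03e-08). Beside it Gad1 differed by -0.30 ± 0.10 (edgeR adjusted p = 0.0607), with 54.1 ± 7.06 CPM in the Rbfox1 and 42.3 ± 4.62 CPM in the Rbfox2 line (SD, n = 4). Ptprn2 differed by 0.27 ± 0.10 the other way (edgeR adjusted p = 0.0856), and Ins2 by -0.15 with an interval of -0.53 to 0.22. In immature mTEC Aire fell by 2.71 on that scale (edgeR adjusted p = 4.89e-09), and Gad1 differed by -0.39, between -1.51 and 0.73.

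The other genes of the islet programme give the setting. Many of these genes passed the filter on low counts largely through their mature libraries and so had to be higher there: within immature libraries alone 2 of 5 further hormone genes, 1 of 4 GABA genes and 1 of 13 exocrine genes passed it. Their counts are a description, beside 26.4% of all features called higher in control and 25.9% in tKO mice. Of the 5 hormone genes 4 were tested, and all 4 were called higher in mature mTEC in control and in tKO mice. Pyy (peptide YY) led them at 48.2 to 66.8 CPM in mature and 0.659 to 4.02 CPM in immature mTEC, a log2 fold change of 4.23 ± 0.19 in controls. Gcg (glucagon), Sst (somatostatin) and Ppy (pancreatic polypeptide) rose by 2.63, 4.19 and 5.25 on the same scale. Gcg and Sst also had 1 immature library far above the rest, at 75 and 41 counts, against medians of 2.5 and 4. Of 4 genes that handle GABA downstream of Gad1 and Gad2, all 4 were called higher in control mice and all 3 tested in tKO mice. Slc6a13, which takes GABA up, rose by 4.23, Slc32a1, the vesicular transporter, by 4.27 and Abat, which degrades GABA, by 1.32.

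Genes of the secretory granule, to which Ptprn, Ptprn2 and Ica1 belong, were less uniform. In control mice 3 of 11 tested were called higher and 1 lower, with a median log2 fold change of 0.15 against 0.04 over all features. Pam, which amidates peptides, was the most abundant (log2 fold change -0.01), Chga and Scg5, granins of the granule core, had 0.34 and -0.80 and were not called, and Syt7, a calcium sensor of exocytosis, rose by 1.59. The other called genes, named after their values were seen, were Vgf and Pcsk2, which rose by 4.92 and 3.02, and Chgb, which fell by 1.18. Of 16 transcription factors of beta and endocrine cells 9 were tested, with 4 called higher and 1 lower in controls. Insm1 rose by 1.97 and Isl1 fell by 1.68. Neurog3 and Hnf4a, named after their values were seen, rose by 3.91 and 2.66. Pdx1, a factor of this list that is not restricted to beta cells, had 5 to 15 counts in each mature library and at most 1 in an immature library. Neurod1, whose product binds E-boxes of the insulin promoters, was listed at 0 in all 16 libraries. The table also lists Chd4, a gene that most cells use, at 0 to 3 counts, so that a 0 in it need not mean absence of the transcript.

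For glucose sensing, 5 of 8 genes tested were called higher and 1 lower in controls. Abcc8 and Cacna1d, a subunit of the potassium channel and a calcium channel of beta cells, rose by 2.77 and 2.28, Kcnj11, the partner of Abcc8, had 0.64 and was not called, and Trpm5 fell by 1.76. The other 3 that rose, named after their values were seen, were Slc2a2 (the glucose transporter GLUT2), Glp1r and Ucn3. Trpm5 also marks tuft cells, whose summed markers stood at 388 to 714 CPM in immature and 147 to 223 CPM in mature libraries. Among 7 further islet autoantigens, all tested, Prph (peripherin) rose by 4.45, Hspd1, Chga and Cpe were not called, and Tspan7 and Sox13, named after their values were seen, fell by 2.84 and 1.92. Of 23 family relatives tested, 8 were called higher and 4 lower: Calcb, the calcitonin gene relative of Iapp, rose by 3.52 and Ptprf fell by 1.86, while Ptprg (-0.08) and Adm (-0.85) were not called. All 7 exocrine pancreas genes tested of 13 were called higher in both genotypes, led in level by Ctrb1, Cel, Prss2 and Pnlip. Aire and Fezf2, the regulators of promiscuous expression, rose by 3.08 and 1.26. No gene of these lists was called in any tKO comparison or interaction by edgeR.

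**Figure D5:**
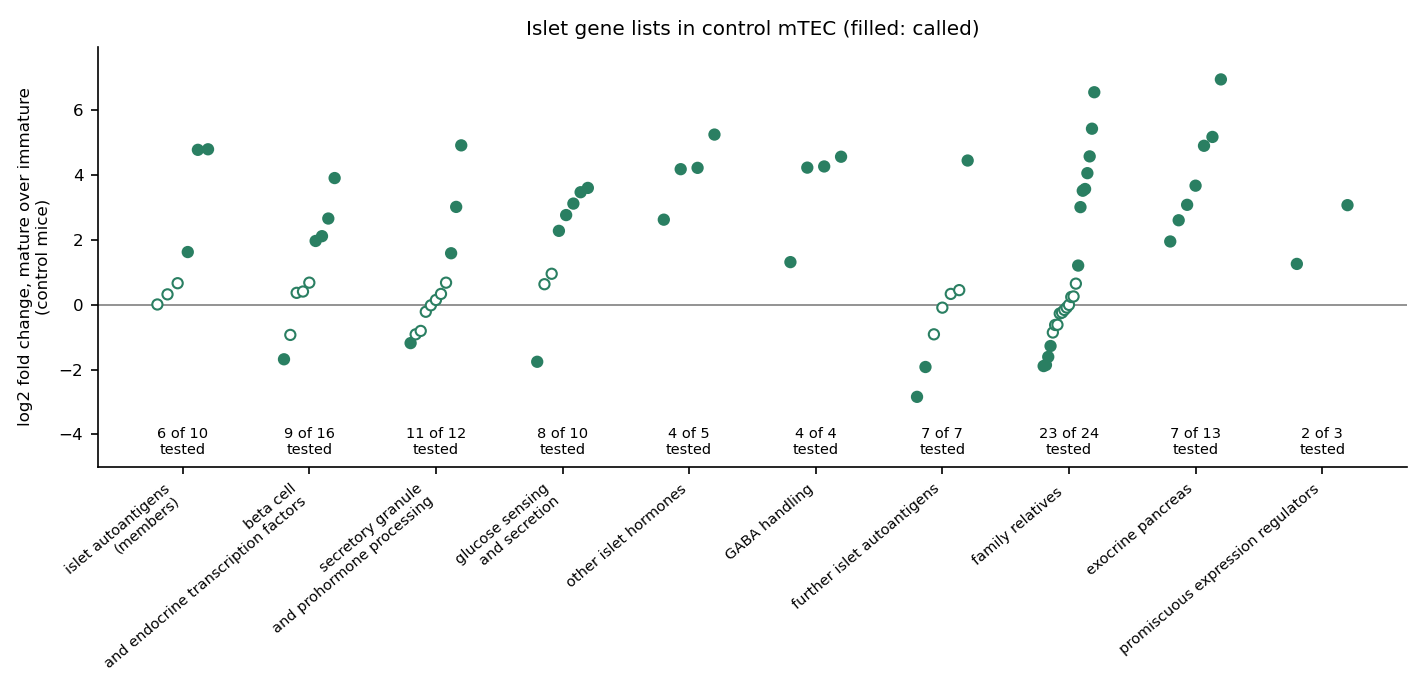
Log2 fold change of mature over immature mTEC in control mice for the members and for 9 lists of related genes, with 1 point per gene tested (filled if called) and the number tested of each list below. Islet hormones, GABA handling and exocrine genes, most of which passed the filter on low counts largely through mature libraries, lie above 1 throughout, whereas the members, granule genes and family relatives spread on both sides of 1.

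Markers of other cells were read as summed CPM, and their part in the results was not tested. All 5 beta cell markers had counts in both populations, at 40.8 to 53.4 CPM summed in mature and 42.0 to 77.5 CPM in immature libraries. Most of that was Mafa (27.3 to 38.9 CPM in mature and 42.0 to 74.9 CPM in immature mTEC). Pdx1, Nkx6-1 and Slc2a2 were at 0 in all immature libraries of the Rbfox2 line. Of the 3 markers tested in controls, 2 (Slc2a2 and Ucn3) were called higher in mature mTEC and 0 lower. Thymocyte and blood markers were at 52.2 to 65.6 CPM in mature and 3.46 to 23.9 CPM in immature mTEC. Fibroblast markers reached 1118 to 1607 CPM in immature mTEC of the Rbfox2 line and 238 to 457 CPM in that of the Rbfox1 line, and endothelial markers 55.7 to 175 and 19.5 to 51.9 CPM, so that line comparisons of the members in immature cells stand beside a difference in these markers. Neuroendocrine markers moved with the population difference of Gad1, Ptprn and Ins2, at 506 to 630 CPM in mature and 130 to 335 CPM in immature mTEC. Most of that sum was Insm1 in mature mTEC (359 to 493 CPM, against 53.2 to 164 CPM in immature mTEC), and of the 4 markers tested in controls 2 were called higher and 1, Chgb, lower. Markers of mature mTEC summed to 10900 to 11970 CPM in mature and 5408 to 6386 CPM in immature libraries, and those of immature mTEC to 842 to 1145 and 4390 to 5877 CPM. The genotypes overlapped in all of these sums. In bulk libraries, fewer cells that express a gene and less of its RNA per cell cannot be told apart.

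Likeness to other genes was described by Pearson's r of log2(CPM + 1) over the 16 libraries, among 13994 protein-coding genes. The points share libraries, and most of the likeness is the split between populations: 2568 genes had r above 0.9 with Ins2, 2145 with Gad1 and 860 with Ptprn, against 2 with Iapp and 0 with Ptprn2 and Ica1. The nearest to Ins2 were Olfr1136, I830077J02Rik and Pgc (r = 0.990, 0.989 and 0.989), to Gad1 Reep1, Slc6a20a and S100g (0.982, 0.980 and 0.980) and to Ptprn Il12rb2, Mylk2 and Rhof (0.972, 0.970 and 0.960). Iapp was most like Pik3ap1, Reg3g and Gsta4 (0.934, 0.923 and 0.893), Ptprn2 most like Neurl1a, Atp2a3 and Cpped1 (0.861, 0.814 and 0.778), and Ica1 most like Henmt1, Cops9 and Slurp1 (0.858, 0.853 and 0.845). Over the deviations from the means of the populations, Neurl1a stayed first for Ptprn2 (0.872). Pik3ap1 and Reg3g stayed among the nearest of Iapp (0.876 and 0.837) and Henmt1 among those of Ica1 (0.792). I830077J02Rik and Olfr1136 stayed among the nearest of Ins2 (0.7845 and 0.7678), whereas Gad1 and Ptprn kept none of theirs.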

How the data were processed

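The mature and immature mTEC libraries were sequenced by the authors as stranded paired-end polyA libraries. Per the labels and methods, the reads were down-sampled per population, duplicates were removed and reads were counted per gene on mm10. Counting was by featureCounts 1.6.0 after HISAT2 2.1.0 and Picard 2.10.9, per the submitters' processing notes, and no source used here gives its strand setting. The deposited values are whole-number counts, not normalized, and library totals are those in the report. Rows assembled by the authors outside Ensembl carry no symbol and entered the fits as features.

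CPM was computed from library totals. Tests were edgeR 4.0.16 quasi-likelihood tests (TMM, filterByExpr with a minimum count of 10) on the whole table in R 4.3.3, with Benjamini-Hochberg adjustment over every feature tested. A call needed an adjusted p under 0.05 and, except in interactions, over 2-fold. Population and both-line comparisons had line as a term, and the tKO comparisons within a line used all 8 libraries of a population. SciPy 1.17.1 gave exact intervals for shares and rate ratios, at 95%. The code was tested on simulated counts. Named genes are the 10 members, up to 4 genes of each list with the highest mean CPM, and the 3 genes most like each member among genes with at least 10 counts in 8 libraries. Some genes that this rule names are not reported here. The members and lists were chosen with earlier results of these data known.

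Replicates were separate mice, and no pair of libraries agreed within sampling noise (chi-square per degree of freedom of 1.87 to 3). Mature and immature libraries share mice by their labels, and their deviations correlated at 0.0889 to 0.165. A tKO and a control mouse of the same number had the same line and sex by their labels. The methods give littermate controls matched by sex, and no label says which mice were littermates. Alternatives were other scaling (DESeq2 size factors, library totals), other filters, DESeq2 1.42.0, Ensembl genes only, thinning, a replicate block, sex, other covariates and each library left out.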

Additional observations from a re-analysis of the deposited data

Results flagged for a closer look

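In 36 sets of 4 libraries (a member in a genotype and population), 6 had a library far from the other 3. In 5 of the 6, only that library had a count, which meets the criterion whatever the count, so that the usual chance rate of about 1 in 20 does not apply to them. Ins1 in control immature mTEC was at 5.20 CPM (12 counts) in Rbfox1 control replicate 2 and at 0 in the other 3. The same library had the only count of Gad2 (0.433 CPM) and the only count of Slc30a8 (0.433 CPM) among control immature libraries. In tKO immature mTEC, Ins2 was at 0.918 CPM (2 counts) in Rbfox1 tKO replicate 2 and at 0 in the others, and Gad2 was at 0.659 CPM (1 count) in Rbfox2 tKO replicate 2 and at 0 in the others. Apart from Ins1, these immature values rest on 1 or 2 counts. Ins2 in tKO mature mTEC was lowest in Rbfox2 tKO replicate 2, at 11.9 CPM, with the other 3 between 14.8 and 15.2 CPM.

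Of 20 pairs of member and population, 2 had every tKO library on one side of the controls in the Rbfox1 line and on the other side in the Rbfox2 line. How many of all features did so was not counted. With 2 against 2 libraries per line such a pattern can arise by chance, so the count is a description. Gad2 in mature mTEC read 10 and 12 counts in Rbfox1 controls, 7 and 3 in Rbfox1 tKO, 3 and 0 in Rbfox2 controls and 8 and 6 in Rbfox2 tKO mice. The difference of tKO minus control was -1.27 CPM in the Rbfox1 and 1.41 CPM in the Rbfox2 line, a gap of 2.67 CPM. Gad2 did not pass the filter on low counts, and without the filter the gap had an edgeR adjusted p of 0.552. Slc30a8 in mature mTEC differed by 0.0314 CPM in the Rbfox1 and -0.235 CPM in the Rbfox2 line, a gap of -0.266 CPM. All 4 mature libraries of the Rbfox1 line held 2 counts, so that their difference comes from the library totals alone. In the Rbfox2 line the controls held 2 and 2 counts and the tKO mice 1 and 1. Without the filter on low counts, the log2 difference between the lines was -0.98, with an edgeR adjusted p of 1.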

How the results depend on the processing

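The number of members called kept within 1.5 times its value in 196 of 202 values over 13 comparisons. Mature against immature mTEC had 3 called members in control and 3 in tKO mice. Without the filter on low counts these became 5 and 5, at 8708 of 45899 and 9627 of 45694 features called. With at least 10 counts required in every library they became 0 and 0 (2138 of 11071 and 2173 of 10792 features called), since Ins2, Gad1 and Ptprn then leave the test. Leaving out each library in turn gave 3 to 4 in control and 3 to 3 in tKO mice. The interaction with genotype went from 0 to 1 (Gad1) with the mouse as a replicate block, and Rbfox2 tKO in immature mTEC from 0 to 1 (Gad1, with 48 of 32404 features called) without the filter. The labels do not name littermates. Whether tKO and control mice of the same number form a pair is thus not known (deviations correlated at 0.0336 to 0.146). The replicate block changed no other count of called members (3 and 3 for the populations, 0 in each tKO comparison). It moved the features called from 0 to 49 in the interaction with genotype, from 1 to 6 for the line difference in mature mTEC, from 3 to 5 for Rbfox1 tKO in mature mTEC and from 4 to 7 over both lines in immature mTEC, and from 7 to 10 for Rbfox2 tKO in immature mTEC.

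Log2 fold changes of the members tested reversed only where a library was left out, in 20 of 657 values, none of a called change. Leaving libraries out gave -0.081 to 0.085 for Ptprn2 between the populations in controls, -0.17 to 3.68 for Ins2 and -0.33 to 0.039 for Ptprn in the interaction, and -0.069 to 0.74 for Ins2 in mature Rbfox1 tKO mice. Over both lines it gave -0.075 to 0.085 for Gad1, -0.056 to 0.17 for Ptprn and -0.14 to 0.028 for Ptprn2 in mature mTEC, and -0.0029 to 0.28 for Ptprn in immature mTEC. With no fold threshold, Iapp in controls (0.67) and Ptprn2 in tKO mice (-0.37) were also called between the populations. Depth limits Ins1, Gad2, Slc30a8 and G6pc2 most: the median mature library held 10 members with a count, 8.5 after thinning and 7.5 at 5 counts or more.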
